A study of Scophthalmus maximus with 8 samples.

Results

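The 186 genes described here stood 4 to 8-fold higher in turbot embryos than at any later stage sampled, out of 21263 genes listed in the count tables. They were chosen from the measured values. Counts were divided by median-of-ratios size factors, the 2 libraries of each stage were averaged, and a gene was kept when its 3 dpf mean was at least 200 normalized counts, its fold over the highest of the 3 later stage means was at least 4 and under 8, and no stage mean reached 20000. The height at 3 dpf and the low level afterwards are therefore given as a description, while the course among the later stages, where the choice bounded the highest of the 3 means from above and below but not which stage held it, was tested. The deposited tables identify genes by Ensembl number alone, and no name or function could be assigned to any of the 186, so the genes are described by their levels.

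Turbot (Scophthalmus maximus) is a farmed flatfish that hatches with an eye on each side of the head and reaches the juvenile form, with both eyes on the left side, through metamorphosis. RNA was measured in whole animals of the phylotypic stage at 3 days post fertilization (3 dpf), and in bodies whose hind part had been cut off at the cloaca, of the pre-metamorphic stage at 15 days post hatching (15 dph), the climax of metamorphosis at 23 dph and the post-metamorphic stage at 37 dph. Each stage had 2 biological replicates, 1 fish to a library, with no treatment and no strain given. The difference between 3 dpf and the later stages cannot be told apart from that between whole animals and cut bodies. In such bulk samples, fewer cells of a type and less RNA per cell cannot be told apart either.

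At the phylotypic stage a vertebrate embryo has laid down its body plan. The neural tube closes, somites form along the trunk, and cells divide fast while regulators of patterning are widely transcribed. Parts of the same machinery are used again in growing and regenerating tissues of older fish. Flatfish metamorphosis itself is driven by thyroid hormone and remodels tissues that already exist. These statements are background and were not tested here.

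Gene counts per library ranged from 19077018 to 24633023, with a median of 21101789. Both embryo libraries are labelled 3 dpf, but neither name under which their counts were deposited gives that stage. The name for replicate 1 has a different entry in days post fertilization, and that for replicate 2 is in days post hatching. Whether these fish differed in stage was not tested, and it bears on every 3 dpf mean and on the difference between the 3 dpf libraries. Replicates were not equally close at every stage. Over the 186 genes, the biological coefficient of variation between the 2 libraries was 26.7% for 3 dpf, 10.9% for 15 dph, 12.4% for 23 dph and 21.5% for 37 dph, and over all genes it lay between 8.15% (15 dph) and 22.0% (3 dpf). Chi-square per degree of freedom between the counts of a replicate pair was at least 7.51, so no library was a copy of another.

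The 186 genes together held 1.37% and 1.51% of the gene counts of the 3 dpf libraries. They held 0.248% and 0.257% at 15 dph, 0.185% and 0.183% at 23 dph, and 0.132% and 0.142% at 37 dph. The share was thus lower at each later stage than at the one before, with no overlap between the libraries of neighbouring stages. This share moves with the other genes of a library as well. On the size-factor scale, the summed normalized counts were 273935 and 254918 at 3 dpf, 44041 and 45192 at 15 dph, 40607 and 40489 at 23 dph, and 37972 and 34014 at 37 dph.

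The median gene stood at 730 normalized counts at 3 dpf. The medians of the later stages were 117 (15 dph), 107 (23 dph) and 92.1 (37 dph). At 3 dpf the stage means ran from 200.1 to 10371, with 66 genes between 200 and 500 and 8 genes at 5000 or more. Counts are not scaled for gene length, so these figures do not rank the genes by transcript number. The later levels were low against 3 dpf and were not near zero for most genes. The highest later stage mean had a median of 142 normalized counts and a lowest value of 27.0. No gene had 3 counts or fewer in any library of 15 or 23 dph. At 37 dph 3 genes did in replicate 1 and 2 genes in replicate 2.

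**Figure D1:**
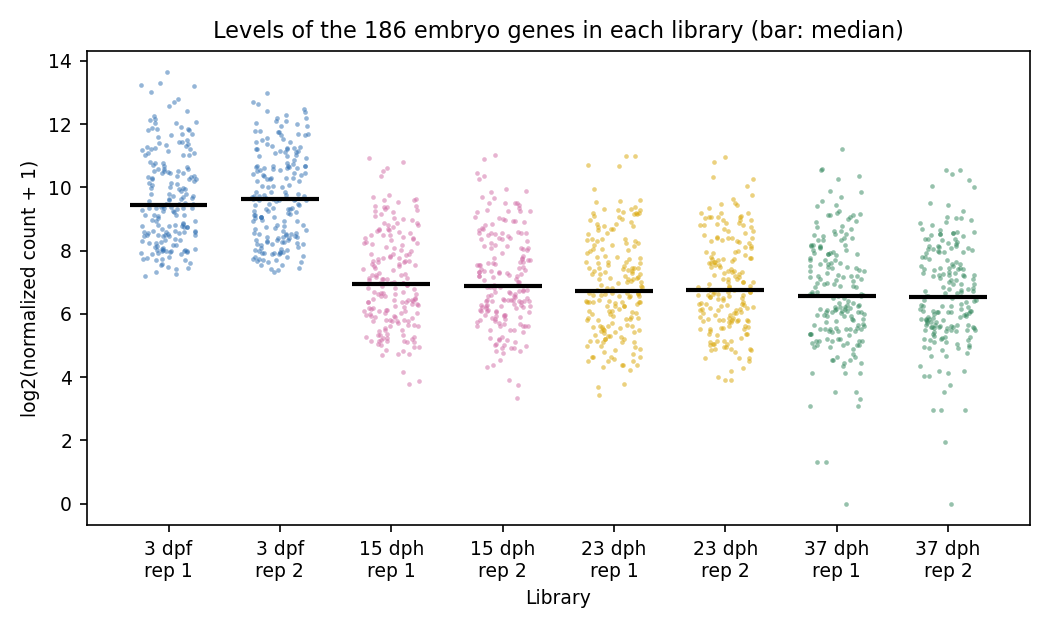
Level of each of the 186 genes in each of the 8 libraries, as log2(normalized count + 1) on the vertical axis, with 1 point per gene and a bar at the median. The medians of the 3 dpf libraries are 689 and 792 normalized counts, and those of the 6 later libraries lie between 91.2 and 122.

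The fold of 3 dpf over the highest later stage had a median of 5.23. It was between 4 and 5 for 81 genes, between 5 and 6 for 55, between 6 and 7 for 28 and between 7 and 8 for 22, so the set thinned out towards its upper end. The 2 genes just inside the lower limit had folds of 4.01 and 4.01, and the 2 just outside it had 3.97 and 3.99. At the upper limit the 2 just inside had 7.92 and 7.98, and the 2 just outside had 8.01 and 8.03. Neither limit therefore coincides with a gap in the values.

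Single libraries blurred the window more than stage means did. The lowest 3 dpf library was at least 4 times the highest later library for 93 of the 186 genes and less than that for the other 93, and this ratio ran from 2.34 to 7.09. All 186 genes had both 3 dpf libraries above all 6 later ones, which the choice of genes very nearly fixes. With replicate 1 of 3 dpf left out, 143 of the 186 stayed within the window, and with replicate 2 left out 132 did. Leaving out a later library kept between 172 and 182 of them.

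For completeness, edgeR's quasi-likelihood test on 18987 genes called all 186 genes lower at 15 dph than at 3 dpf, taking an adjusted p (Benjamini-Hochberg) under 0.05 together with a change of 1 or more on the log2 scale as a call, where 14.3% of all genes tested were called lower. All 186 were also called lower at 23 dph, against 14.9% of all genes, and at 37 dph, against 20.7%. The choice of genes used these contrasts, and nothing is read from the calls. The median log2 fold change was -2.52 at 15 dph, -2.68 at 23 dph and -2.88 at 37 dph, each against 3 dpf. The median gene had 17.1% of its 3 dpf level at 15 dph, 15.4% at 23 dph and 13.7% at 37 dph. At 37 dph 50 genes had less than 10% of their 3 dpf level, compared with 12 genes at 15 dph.

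The later stages were then compared with each other, to ask whether genes that were already low in the larva stayed level through metamorphosis. Most did so within a factor of 2. The highest of the 3 later means was less than 2 times the lowest for 138 of the 186 genes (74.2%), against 74.6% of the 18209 genes that reached a mean of 25 normalized counts at some stage. Among genes over 8-fold higher at 3 dpf than later it was 73 of 143 (51.0%), and among genes 2 to 4-fold higher 767 of 982 (78.1%). These sets differ in later level. The highest later mean had a median of 39.6 normalized counts in the over 8-fold set, 142 in the 186 genes and 312 in the 2 to 4-fold set. Ratios of low counts spread more by counting error, so nothing is read from the difference between sets. In the share within a factor of 2, the 186 genes lay near the background. The steadiest of them had 601 and 412 normalized counts at 3 dpf, 81.9 and 93.1 at 15 dph, 95.3 and 77.6 at 23 dph, and 102 and 74.7 at 37 dph. Its later stages overlapped throughout, and their means were within 1.02-fold of each other.

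Where the later stages differed, 15 dph tended to be the highest and 37 dph the lowest. The highest later mean was at 15 dph for 98 genes (52.7%), at 23 dph for 41 and at 37 dph for 47. The lowest was at 37 dph for 110 genes (59.1%), at 15 dph for 45 and at 23 dph for 31. Among the 18209 genes of the background, 15 dph was highest for 36.6% and 37 dph lowest for 42.8%. The order 15 dph, 23 dph, 37 dph from high to low was the commonest, with 85 genes (45.7%), and the reverse order was held by 29 genes (15.6%). Both of the other sets leaned the same way, since 37 dph was lowest for 51.7% of the genes over 8-fold and for 64.3% of those 2 to 4-fold higher at 3 dpf. Neighbouring means in such an order often lay within replicate error, so the orders are descriptions.

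Over the whole later period, 39 of the 186 genes (21.0%) were lower at 37 dph than at 15 dph in edgeR's test, where 8.33% of all genes tested were. In the other direction 8 genes (4.30%) were higher, where 13.4% of all genes were. All genes tested include genes below the 3 dpf minimum of 200, so they are not matched in level. At or above that minimum, 2.76% of the 4964 tested genes higher in replicate 2 of 3 dpf were called higher and 12.8% lower. Of the 5517 higher in replicate 1, 11.5% were called higher and 5.47% lower. In both of these groups the share called lower was under the 21.0% of the 186 genes. The share called higher was under the 13.4% of all genes in both. What part of the gap to all genes goes with the minimum was not tested. The median log2 fold change of the 186 was -0.41, against -0.04 for all genes tested, and 124 of the 186 values were negative. The 39 genes had median means of 40.2 normalized counts at 37 dph and 132 at 15 dph, with log2 fold changes from -10.50 to -1.01, and 36 of them had their 23 dph mean in between. The 8 genes had median means of 259 at 37 dph and 24.4 at 15 dph, and 7 of them had their 23 dph mean in between. The counts with a 23 dph mean in between were not set beside those of other called genes. They are not called particular to the 186 genes. Both 37 dph libraries were below both 15 dph libraries for 100 genes (53.8%), where this held for 39.4% of all genes tested, and above both for 38 genes (20.4%), where this held for 38.2%. With no minimum on the fold change the counts became 66 lower and 16 higher, against 20.6% and 22.6% of all genes. When every library had to hold 10 counts or more, 28 of 177 members tested were lower and 8 higher, where 1196 and 1904 of 16252 genes were. Fewer of the 39 genes stayed called when any 1 library of 15 or 37 dph was left out. The fit also gave each gene 1 spread for all stages, while replicates lay further apart at 37 dph than at 15 dph.

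The same lean was seen in the neighbouring sets, and the difference between sets was not tested. Of the genes over 8-fold higher at 3 dpf, 26.6% were lower and 9.09% higher at 37 dph than at 15 dph. Of those 2 to 4-fold higher, 17.3% were lower and 2.75% higher. Median log2 fold changes were -0.71 and -0.38 in these sets. The decline is therefore not called particular to the 4 to 8-fold genes.

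Divided by step, few of these changes were called between 15 and 23 dph. At 23 dph 3 of the 186 genes (1.61%) were lower than at 15 dph, where 0.2% of all genes tested were. No gene was higher in edgeR's test, where 1.48% of all genes were. Without adjustment, 5 genes were higher and 32 lower at a p-value under 0.05 in edgeR, where 10.9% of all genes tested were higher and 7.38% lower. DESeq2 called 1 of the 186 genes higher and 5 lower, and 405 and 69 of the 18987 genes tested. The count of 3 lower genes moved when either 3 dpf library was left out, and so did the count over all genes. The median log2 fold change of the members stayed at -0.14 in both of these fits. When every library had to hold 10 counts or more, 1 member was lower, where 23 of the 16252 genes tested were. The median log2 fold change was -0.14, against 0.00 for all genes. Both 23 dph libraries were below both 15 dph libraries for 78 genes (41.9%), against 30.8% of all genes, and above both for 29 genes (15.6%), against 33.2%.

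Between 23 and 37 dph more genes passed the test, which is not read as a difference between the steps. The fit gave each gene 1 spread for all stages, although replicates lay closer at 15 and 23 dph than at 37 dph. At 37 dph 16 of the 186 (8.60%) were lower than at 23 dph, where 4.36% of all genes tested were, and 8 (4.30%) were higher, where 7.67% of all genes were. The median log2 fold change was -0.26, against -0.01 for all genes. The 8 higher genes depended on single libraries. Fewer of them stayed called when any 1 library of 15, 23 or 37 dph was left out, and fewest without a 23 dph library. Over all genes tested, fewer were called higher as well without a 23 dph library, but a smaller share of the calls was lost. Both 37 dph libraries were below both 23 dph libraries for 91 genes (48.9%), against 33.3% of all genes, and above both for 34 genes (18.3%), against 34.4%. With no minimum on the fold change, 29 genes were lower and 12 higher, where 12.6% and 14.5% of all genes were. The comparisons of 15, 23 and 37 dph share libraries and are not independent of each other. In all, 138 of the 186 genes were called in none of the 3 and 48 (25.8%) in at least 1, where 23.3% of all genes tested were called in at least 1. The 186 genes thus changed after 15 dph about as often as genes in general, and their calls were mostly downward.

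**Figure D2:**
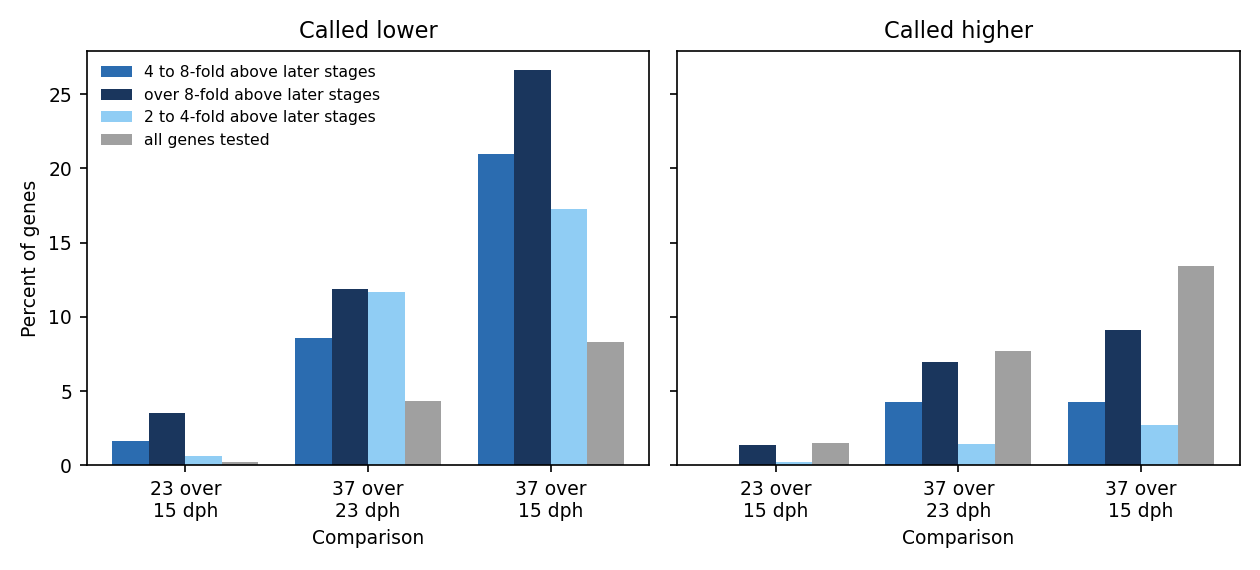
Percent of genes called lower (left) and higher (right) in edgeR's test in each of the 3 comparisons of later stages, for the 186 genes, the genes over 8-fold and 2 to 4-fold higher at 3 dpf, and all 18987 genes tested. For 37 over 15 dph the bars of the 186 genes stand at 21.0% lower and 4.30% higher, beside 8.33% and 13.4% of all genes.

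**Figure D3:**
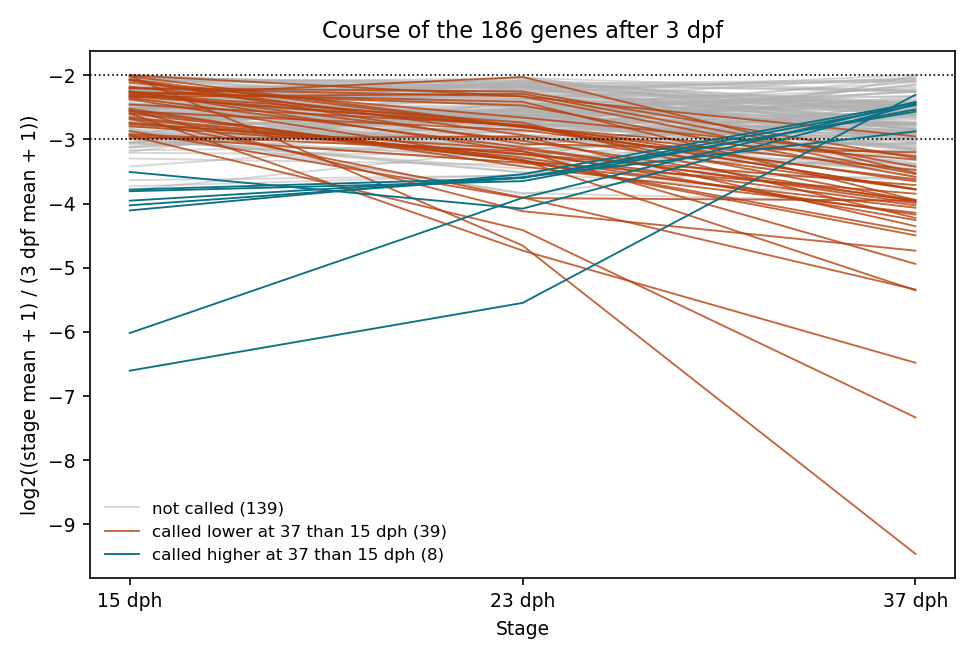
Course of the 186 genes over the later stages, with the log2 ratio of the stage mean to the 3 dpf mean (1 added to each) on the vertical axis and 1 line per gene. Dotted lines mark -2 and -3, the limits of the window for the highest later stage before 1 is added. A gene near the lower fold limit can therefore plot just above -2. The 39 genes called lower and 8 called higher at 37 than at 15 dph are coloured.

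The genes that moved furthest after 15 dph show what a single fold window can hold. ENSSMAG00000004527 had 794 and 611 normalized counts at 3 dpf, 180 and 168 at 15 dph, 30.8 and 23.2 at 23 dph, and no count in either 37 dph library. The 2 libraries of each stage lay close together, and no stages overlapped. It was at least 47.0-fold lower at 37 dph than at 15 dph and at least 190-fold lower than at 3 dpf, against a floor of 3 counts per 37 dph library. The adjusted p for 37 over 15 dph was 7.79e-06 in the edgeR fit. Between 23 and 15 dph its log2 fold change was -2.68 (SE 0.26, adjusted p = 0.00116 in the same fit). SE here stands for an approximate standard error that was not fitted directly. It is the size of the log2 fold change divided by the square root of edgeR's F value. Its place in the window rests on 15 dph alone, with a fold of 4.04.

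ENSSMAG00000000706 took a like course at lower levels. It had 540 and 490.0 normalized counts at 3 dpf, 63.1 and 69.2 at 15 dph, 19.8 and 26.6 at 23 dph, and only 1 and 3 raw counts at 37 dph. No stages overlapped. By counts, the 37 dph level was lower than that of 15 dph by a factor of 28.1, with an exact 95% interval of 10.8 to 105 that covers counting error only. The log2 fold change for 37 over 15 dph was -4.77 (SE 0.40, adjusted p = 2.64e-05 in edgeR's test). With so few counts at 37 dph this SE understates the error, and the counting interval above is wider. For 23 over 15 dph it was -1.52 (SE 0.26, adjusted p = 0.0153).

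The third gene called lower at 23 dph than at 15 dph was much better counted. It had 8325 and 5680 normalized counts at 3 dpf, 1321 and 995 at 15 dph, 252 and 273 at 23 dph, and 76.3 and 78.6 at 37 dph. Its log2 fold change was -2.15 for 23 over 15 dph (SE 0.22, adjusted p = 0.00114 in edgeR's test) and -1.77 for 37 over 23 dph (SE 0.25, adjusted p = 0.000949). It was the only 1 of the 8 genes with a 3 dpf mean of 5000 or more that was called lower at both steps.

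In the opposite direction, ENSSMAG00000009595 came back after a deeper trough. It had 2375 and 1320 normalized counts at 3 dpf, 17.1 and 19.0 at 15 dph, 23.8 and 53.3 at 23 dph, and 397 and 351 at 37 dph. The 37 dph libraries stood above all 4 libraries of 15 and 23 dph and below both of 3 dpf. The log2 fold change was 4.34 for 37 over 15 dph (SE 0.40, adjusted p = 3.88e-05 in edgeR's test) and 3.28 for 37 over 23 dph (SE 0.37, adjusted p = 0.000352). At 15 dph it had 0.975% of its 3 dpf level, the lowest of the 186 genes at that stage, and its fold of 4.94 is set by 37 dph.

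ENSSMAG00000025727 had 838 and 706 normalized counts at 3 dpf, 12.8 and 9.06 at 15 dph, 54.6 and 46.3 at 23 dph, and 216 and 72.8 at 37 dph. The stages did not overlap, although the 37 dph libraries differed widely. Its log2 fold change for 37 over 15 dph was 3.64 (SE 0.51, adjusted p = 0.00038 in edgeR's test). Over the alternatives to this fit it ranged from 2.72 to 4.24, with adjusted p from 3.61e-14 to 0.00666. For 23 over 15 dph the value was 2.19 (SE 0.55), and edgeR's adjusted p of 0.0741 missed the threshold.

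**Figure D4:**
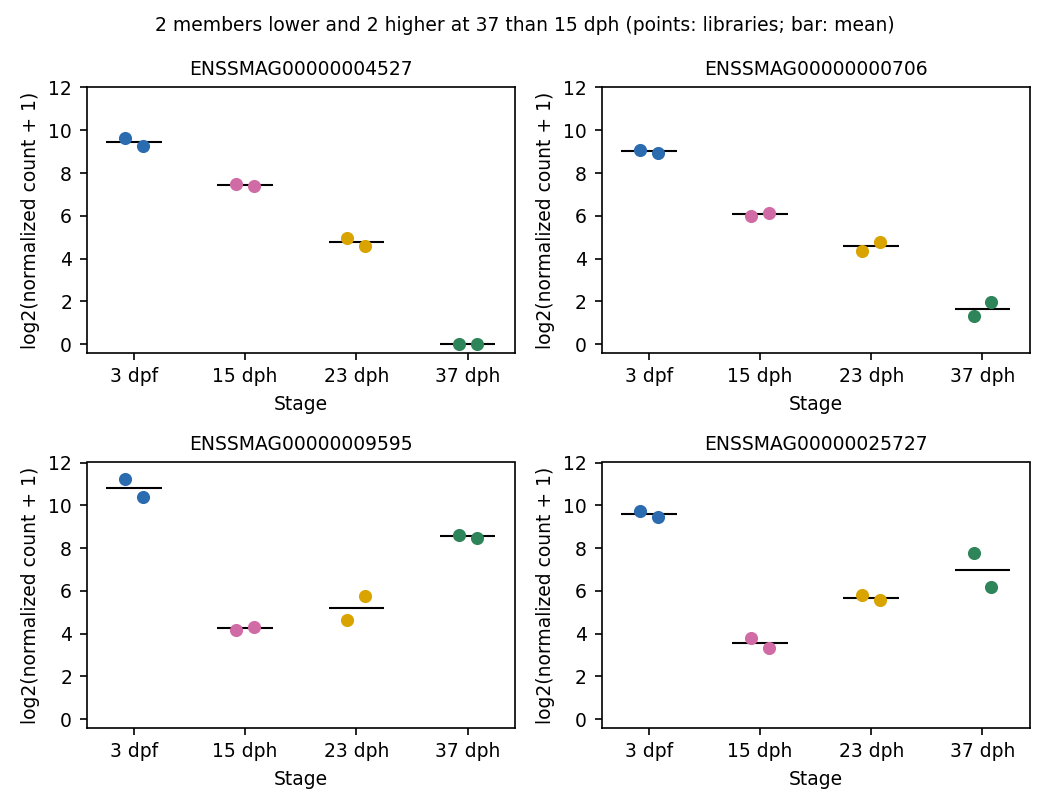
Level of 4 genes in each library, as log2(normalized count + 1) against stage, with 1 point per library and a bar at the mean of the 2 points. The upper 2 genes are lower at 37 than at 15 dph (0 counts in both 37 dph libraries for ENSSMAG00000004527), and the lower 2 are higher.

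The genes with the most counts at 3 dpf were mixed in their later course. The gene with the highest 3 dpf mean had 12728 and 8013 normalized counts at 3 dpf, 1571 and 1396 at 15 dph, 2025 and 1296 at 23 dph, and 2356 and 1511 at 37 dph. Its later stages overlapped, and its log2 fold change for 37 over 15 dph was 0.35 (SE 0.29, adjusted p = 0.346 in edgeR's test). The gene next in order had 10027 and 6608 at 3 dpf, 1940 and 1911 at 15 dph, 2035 and 1982 at 23 dph, and 1501 and 1214 at 37 dph. Both of its 37 dph libraries were below the other 4 later ones, and edgeR gave -0.53 on the log2 scale for 37 over 15 dph (SE 0.21, adjusted p = 0.0637). Of the 8 genes with a 3 dpf mean of 5000 or more, 2 (25%) were called lower and 1 (12.5%) higher at 37 dph than at 15 dph. Over all genes tested, 8.33% were called lower and 13.4% higher, and nothing is read from so few genes. In 7 of these 8 the 3 dpf libraries themselves differed, with replicate 1 above replicate 2.

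Over the set as a whole the 3 dpf libraries differed in both directions, and the direction went with the later course. Replicate 2 of 3 dpf was the higher library for 92 genes and replicate 1 for 94. The 2 libraries were more than 2-fold apart for 9 genes (4.84%), with replicate 2 higher in 7. This held for 3.71% of the 15835 genes with a 3 dpf mean of at least 25. The gene furthest apart had 178 normalized counts in replicate 1 and 590 in replicate 2. Of the 92 genes higher in replicate 2, 27 (29.3%) were lower and 1 was higher at 37 dph than at 15 dph, with a median log2 fold change of -0.72. Of the 94 genes higher in replicate 1, 12 (12.8%) were lower and 7 were higher, with a median of 0.03. The same split of all 10481 tested genes with a 3 dpf mean of at least 200 gave 12.8% lower and 2.76% higher among those higher in replicate 2, and 5.47% lower and 11.5% higher among those higher in replicate 1. The 36 genes more than 1.5-fold higher in replicate 2 included 16 (44.4%) called lower at 37 dph, and the 28 genes more than 1.5-fold higher in replicate 1 included 2 (7.14%), where the shares over the tested genes were 22.0% and 3.56%.

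The medians were also taken for each 37 dph library. With replicate 1 of 37 dph alone, the median log2 ratio to the 15 dph mean was -0.80 for genes higher in replicate 2 of 3 dpf and 0.08 for genes higher in replicate 1. With replicate 2 of 37 dph alone, the medians were -0.71 and -0.03. Across the 186 genes the log2 ratio of replicate 1 to replicate 2 at 3 dpf had a Pearson's r of 0.25 and a Spearman's rho of 0.44 with the log2 fold change of 37 over 15 dph. These are correlations across genes that share all their libraries, and genes are not independent replicates. Over the 10481 tested genes, Pearson's r was 0.38 and Spearman's rho 0.41. With 2 fish at 3 dpf, what set those libraries apart was not tested.

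**Figure D5:**
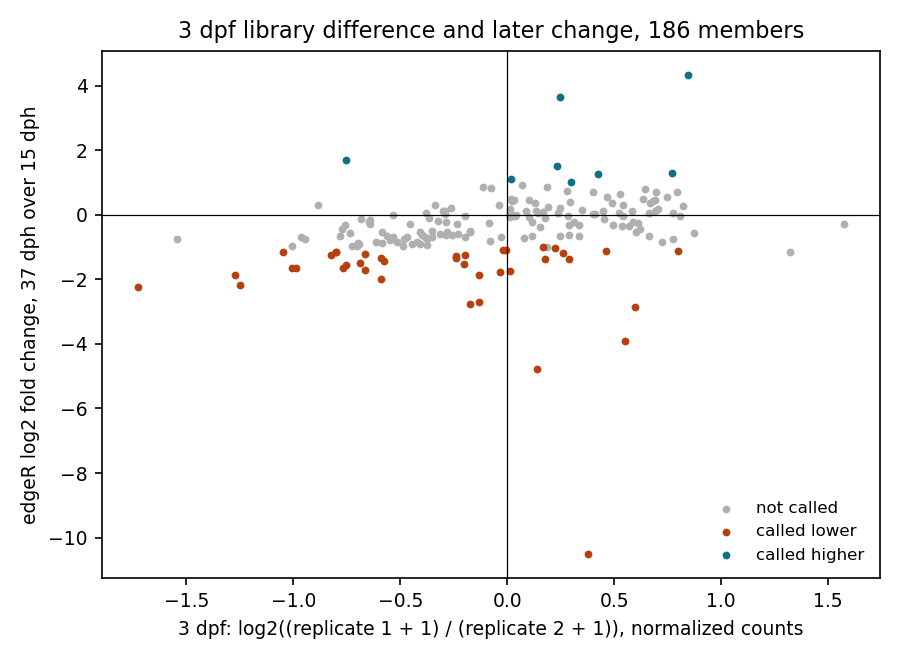
Difference between the 3 dpf libraries (log2 ratio of replicate 1 to replicate 2, 1 added to each normalized count, horizontal axis) against the edgeR log2 fold change of 37 over 15 dph (vertical axis), with 1 point per gene for the 186 genes. To the left of 0 are the 92 genes higher in replicate 2, of which 27 are called lower, and to the right the 94 genes higher in replicate 1, of which 12 are. The lowest point is the gene with no counts at 37 dph, whose fitted value depends on the prior count.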

How the data were processed

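After read checks (FastQC 0.11.8) and adapter trimming (Trimmomatic), the authors aligned the reads to ASM1334776v1 using STAR 2.7.9a and assigned them to genes using HTSeq-count 2.0.2. They deposited raw counts, 1 table per library, without normalization or pooling. The strand setting and annotation release are not given in the sources used here. Ambiguous and non-unique alignments were entered apart from the genes, so overlapping or near-identical genes may be undercounted. The 5 closing entries of each table, which name no gene, were left out. Of the aligned entries, 23.5% to 25.9% were not assigned to a single gene. They lay on no gene, on more than 1 gene, or aligned to more than 1 place. A count of 0 allows up to 3 counts, for counting error only.

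Size factors came from DESeq2 1.42.0. Tests used edgeR 4.0.16 in R 4.3.3 on all 8 libraries with 4 stage means and 4 residual degrees of freedom, TMM normalization and filterByExpr, which kept 18987 genes and all 186 members. Calls needed a Benjamini-Hochberg adjusted p-value under 0.05 over all genes tested and a change of 1 or more in size on the log2 scale. Replicates are described as biological, 1 fish each.

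The members and the comparisons were chosen with earlier results of these data known. The rule for named genes took the 2 members with the largest called rise and the 2 with the largest called fall from 15 to 37 dph whose libraries did not overlap. Members given without an identifier, and the comparison of the 3 dpf libraries, were chosen after their values were seen. The gene table available, for another assembly, holds 26628 genes and 0 Ensembl identifiers, so gene lists and tissue markers were not analysed here.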

Additional observations from a re-analysis of the deposited data

How the results depend on the processing

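Of 211 values recomputed under alternatives, 196 kept their direction and call or, for counts, stayed within 1.5 times. None reversed, but a count could not, and the 4 named genes were picked as the largest called changes. That no value reversed is therefore not read as support. The number of genes in the window was 186, and it was 182 with TMM scaling, 246 with a minimum of 100 at 3 dpf, 127 when the lowest 3 dpf library was set against the highest later one, and 182 to 211 with each library left out. From 15 to 23 dph, 3 members were lower and 0 higher, where 0.2% and 1.48% of all genes tested were. With DESeq2 5 were lower and 1 higher, beside 69 and 405 of 18987 genes. In the fit of the 6 later libraries 5 were lower and 0 higher, beside 85 and 354 of 18670. When every library had to hold 10 counts or more 1 was lower and 0 higher, beside 23 and 150 of 16252. From 23 to 37 dph, 16 were lower and 8 higher, where 4.36% and 7.67% of all genes were. With no minimum on the fold 29 were lower and 12 higher, where 12.6% and 14.5% of all genes were. From 15 to 37 dph, 39 were lower and 8 higher, where 8.33% and 13.4% of all genes were. Under no minimum fold change 66 were lower and 16 higher, where 20.6% and 22.6% of all genes were. With each replicate left out, more members were lower than higher in all 3 comparisons, and the shares of all genes called moved too. A lone library was assumed to vary like the other stages. Upper-quartile normalization moved the all-gene median for 37 over 15 dph, on the log2 scale, from -0.04 to -0.11 and that of the members from -0.41 to -0.48. The 4 named genes were called in every alternative in which they were tested. The cause of these changes was not otherwise tested.

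The stages share replicate numbers, but the labels do not tie them to a shared fish, tank or day. Differences between replicates 1 and 2 correlated between stages from -0.14 to 0.23 over 6 pairs of stages, above 0.1 in 1. That pair was 3 dpf with 37 dph (0.23), and its bearing on the split by 3 dpf library was not tested. With a replicate block, from 15 to 23 dph 3 members were lower and 1 higher. From 23 to 37 dph 17 were lower and 8 higher, and from 15 to 37 dph 40 were lower and 7 higher. Over all genes tested with this block, 0.232%, 4.5% and 8.63% were lower in these comparisons, in the same order. Those higher were 338, 1448 and 2537 of the 18987 genes tested. The gene list alternative was not run, for want of gene names.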

Other observations

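Within the window, the share of genes called lower at 37 dph than at 15 dph did not rise or fall steadily with the fold at 3 dpf. It was 18 of 81 (22.2%) for folds of 4 to 5 and 7 of 55 (12.7%) for 5 to 6. For 6 to 7 it was 9 of 28 (32.1%) and for 7 to 8 it was 5 of 22 (22.7%). Over all genes tested, 8.33% were called lower and 13.4% higher. Of the 8 genes called higher at 37 dph, 5 had a fold of 5 to 6, which is 9.09% of that band. The fold and the level at 3 dpf were used to choose the genes. Nor did the share called lower rise or fall steadily with the level at 3 dpf. It was 13 of 66 genes at means of 200 to 500 normalized counts, 12 of 41 at 500 to 1000 and 5 of 38 at 1000 to 2000. Above that it was 7 of 33 at 2000 to 5000 and 2 of 8 at higher means. These shares rest on small numbers and were not tested against each other.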
